A study of Mus musculus with 6 samples.

Results

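Cytosolic ribosomal protein genes were followed in the abdominal aorta of mice that lack *Prdm16* in vascular smooth muscle cells (VSMCs). The genes were chosen by name, as the numbered *Rpl* and *Rps* genes with their x, l, a and al forms together with *Rpsa*, *Rplp0*, *Rplp1* and *Rplp2*, and by a mean of at least 0.5 TPM, a level corrected for transcript length and scaled to a fixed total per library, over the 6 libraries. The names matched 84 of the 55426 genes measured, and 80 passed the minimum, 32 of the small (40S) and 48 of the large (60S) subunit. *Rpl10l* and *Rpl39l* were listed at 0 in every library, and *Rpl3l* and *Rpl32l* had means of 0.118 and 0.185 TPM. The least abundant members were *Rpl6l* at 6.05 and *Rps4l* at 17.5 TPM.

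The cytosolic ribosome translates all mRNAs made in the nucleus. Its small subunit, which holds the 18S rRNA, reads the codons, and its large subunit, which holds the 28S, 5.8S and 5S rRNAs, joins the amino acids. Nearly every ribosomal protein is present once in each ribosome, apart from the acidic stalk proteins. Many of their mRNAs begin with a C and a run of pyrimidines, the 5′ terminal oligopyrimidine (TOP) tract, through which growth signals set how well these mRNAs are translated. Such a change in translation need not alter mRNA levels, which are what was measured here.

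Each library came from the abdominal aorta of 1 male mouse of C57BL/6J background, and 3 Prdm16SMKO mice were compared with 3 control mice. The study's methods state that the floxed and the Cre lines were backcrossed to C57BL/6J, without a number of generations. Prdm16SMKO mice carry *Prdm16* fl/fl and *Myh11*-CreERT2, a tamoxifen-dependent Cre recombinase driven by a VSMC promoter, and control mice carry *Myh11*-CreERT2. The study's methods give male mice tamoxifen at 75 mg/kg/day by gavage for 5 days at 8 to 10 weeks of age. The time from tamoxifen to collection of the aortas for sequencing was not given in the sources used here. Whole vessel was used, which also holds cells other than VSMCs. Which cells the remaining *Prdm16* transcripts came from was not tested. *Prdm16* stood at 33.4, 36.8 and 30.8 TPM in control and at 20.8, 27.7 and 14.8 TPM in Prdm16SMKO libraries, and its log2 fold change of −0.70 ± 0.23 (SE) was not called (limma, adjusted p = 0.376). The counts of reads behind a TPM value are unknown, so no counting error could be given. With 3 libraries per group, the p-values below measure the spread between these mice.

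The starts of several members are shown because the TOP tract is the feature by which these mRNAs are known, and their levels are described below. Sequences are from the RefSeq promoter table on GRCm38.p6, which matched 58 of the 80 members, and each covers 12 bases on either side of an annotated start, 5′ to 3′ on the strand of the gene. Capitals mark a C followed by at least 4 further pyrimidines, with its first base within 5 bases of the annotated first base.
Rps24, chr14:24490666-24490689, plus strand: gcgctggggtCCTTCCTTgcgcgt
Rpl13a, chr7:45128734-45128757, minus strand: accctgcgacaagaCCTCCTCCTT
Rplp2, chr7:141447639-141447662, plus strand: gtcagcgtCTTCCTTTCgccgccg
Rps6, chr4:86857356-86857379, minus strand: cggaagtcgggCCTCTTTTTCgtg
Rps27, chr3:90213637-90213660, minus strand: tccgctttcgCTCCTTTCCggcgg
Rpl31, chr1:39367839-39367862, plus strand: cctcctcgCCTCCCCgtgacccgg
Rpl35a, chr16:33056470-33056493, plus strand: gggcttgCCTTCCTCTTTCCgcca
Rpl22, chr4:152325714-152325737, plus strand: gccctgggaaaagcaatagctggc
Rplp0, chr5:115559455-115559478, plus strand: ttcgggtttcgaggaccgcctggt

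Such a tract was found at a start of 28 of the 58 members (48.3%), against 21.2% of the 27025 genes in the table and 24.0% of the 10803 other genes that were also tested for expression. The starts printed for *Rpl22* and *Rplp0* held none in this window. *Rps24*, *Rpl35a* and *Rpl22* have further annotated starts that are not shown. These shares depend on where the annotation places the first base.

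Over the 250 bases before and 50 after each start, CGGAAG (either strand), the core of the site bound by ETS family factors, was present in 41 members (70.7%), against 18.8% of all genes and 33.1% of the other genes tested. In *Rpl31* it stood just downstream of the start, at chr1:39367852-39367873.
Rpl31, plus strand, motif in capitals: ccgtgaccCGGAAGttgtacgg
The palindrome TCGCGA was present in 13 members (22.4%), against 2.86% of all genes and 5.37% of the other genes tested. One of them was *Rps19*, where a copy ended just before the annotated first base, within chr7:24884578-24884599.
Rps19, plus strand, motif in capitals: ccgaaatcTCGCGAgactcgac
GGGCGG, the core of the Sp1 site, was present in 62.1% of members, against 38.2% of all genes and 67.6% of the other genes tested. TATAAA was present in 10.3% of members, against 15.7% of all genes and 8.99% of the other genes tested. A match of letters describes the sequence and does not show that a factor binds there.

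Ribosomal protein mRNAs were among the most abundant in the aorta. Of the 80 genes, 75 ranked within the first 500 of all genes by mean TPM and 23 within the first 100. TPM is corrected for transcript length. Levels of members are less easily set side by side where near copies, described below, can share their reads. In control replicate 1, *Rpl41* stood at 793 TPM alone and at 1638 TPM summed with its near copies. *Rpl5* stood at 277 and 798 TPM there. Without copies, the median over the members was 533 TPM. It was 536 TPM for 40S and 525 TPM for 60S genes. *Rps24*, of the small subunit, was highest, with means of 1889 ± 108 TPM over control and 2001 ± 181 TPM over Prdm16SMKO libraries (SD, n = 3). *Rpl13a*, whose protein is also known from translational silencing of inflammatory mRNAs in myeloid cells, followed at 1623 ± 123 and 1729 ± 281 TPM. *Rplp1* lay at 1659 ± 159 and 1448 ± 137 TPM, and *Rps15* at 1395 ± 107 and 1434 ± 250 TPM. *Rps24* was above *Rpl13a* in every library, whereas *Rplp1* and *Rps15* changed order between libraries.

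At the low end, *Rpl39* lay at 141 ± 13.7 and 150 ± 6.56 TPM in control and Prdm16SMKO libraries, and *Rps20* at 132 ± 11.6 and 144 ± 8.46 TPM. *Rps27l* lay at 96.1 ± 3.13 and 107 ± 11.1 TPM. The order of the 80 genes was nearly the same in every library, with Spearman's rho between 2 libraries of 0.973 to 0.996 across the genes, which are not independent replicates. Apart from *Rps4l* and *Rpl6l*, which are annotated as pseudogenes, mean levels over the 6 libraries ran from 102 TPM for *Rps27l* to 1945 TPM for *Rps24*.

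The comparison of Prdm16SMKO with control mice asked whether loss of *Prdm16* in VSMCs was accompanied by a change in this family. None was called: 0 of the 80 genes passed an adjusted p of 0.05 (limma on log2(TPM + 0.5), two-sided, Benjamini-Hochberg over 15775 genes), where 56 of all genes (0.355%) did. At an unadjusted p under 0.05 the count was 1 of 80, *Rps4l*, against 8.74% of all genes. With 0.355% of all genes called, a count of 0 among 80 does not set the family apart from other genes. *Prdm16* itself was not called, so the lack of a call does not show that a gene was unchanged. The study's own analysis reports many more differentially expressed genes than this fit called. The reason for that difference was not tested. The median log2 fold change was 0.04 over the members and 0.02 over all genes tested. The fold change was above 0 for 61 members (76.3%), against 54.2% of all genes, and this count changed with single libraries. It was 34 of 80 without control replicate 3 and 32 of 80 without Prdm16SMKO replicate 1, and 75 of 80 without control replicate 2 or without Prdm16SMKO replicate 3.

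The values also bound what could have been missed in the relative level of each gene in whole vessel. They do not bound a change per cell or in VSMCs alone. The 95% interval of the fold change lay within a 1.5-fold difference in either direction for 77 of the 80 genes, and within a 2-fold difference for 79. The exceptions to the first bound were *Rpl35a*, *Rps4l* and *Rpl6l*, and the exception to the second was *Rps4l*. The median SE of the members was 0.15 on the log2 scale. For 73 members the log2 fold change was within 0.15 of 0.

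**Figure D1:**
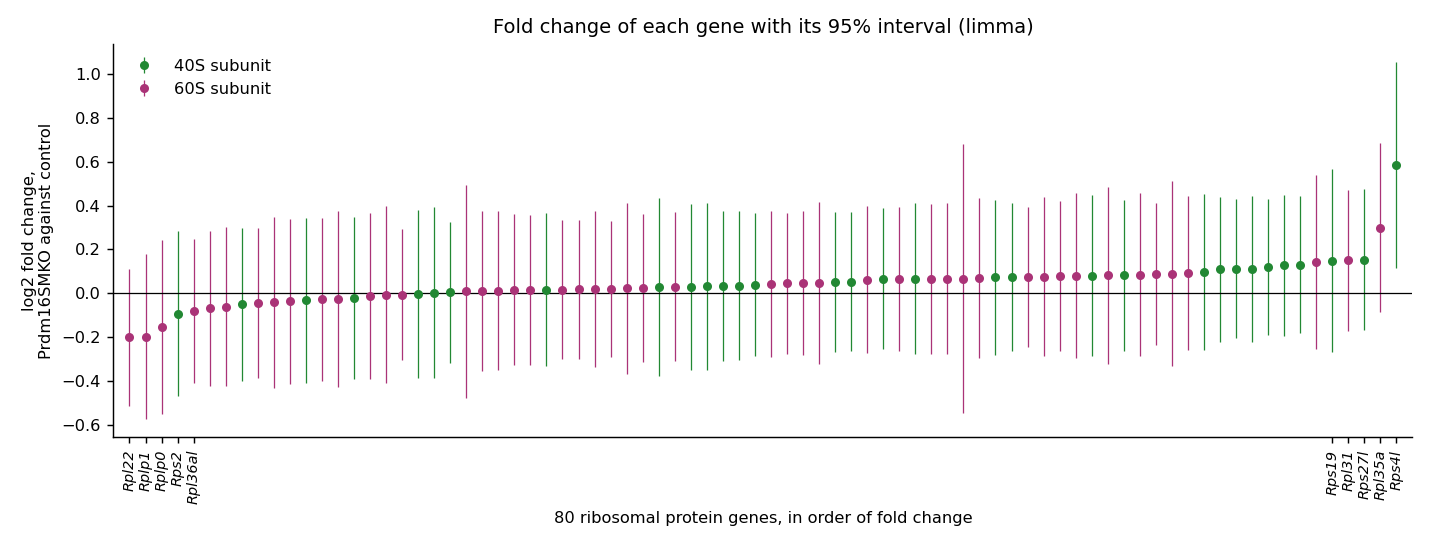
Log2 fold change of each of the 80 ribosomal protein genes, Prdm16SMKO against control (3 libraries each), on the y axis, with the genes in order of fold change on the x axis and the outermost ones labelled. Points are limma estimates and lines their 95% intervals, coloured by subunit; the intervals of all genes except *Rps4l* include 0, and the estimates run from −0.20 for *Rpl22* to 0.58 for *Rps4l*.

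The summed level of the family moved from library to library by more than it differed between the groups. The 80 genes took 4.54%, 5.03% and 4.33% of the TPM in control replicates 1 to 3 and 5.19%, 4.65% and 4.36% in Prdm16SMKO replicates 1 to 3. The group means were 4.63% ± 0.359 and 4.74% ± 0.421 (SD, n = 3), and the groups overlapped. Control replicate 2 and Prdm16SMKO replicate 1 were the highest. The same 2 libraries had the lowest share of TPM from the 45S rRNA locus, 15.6% and 15.7%, where the other 4 had 21.7% to 31.4%. They also had, within each group, the highest summed TPM of VSMC markers (24674 and 17094) and of neuron and Schwann cell markers (79.95 and 343). Mitochondrial transcripts took 15.8% to 27.4%. When the TPM of both was set aside, the family took 8.44%, 8.21% and 8.76% of the rest in control and 9.11%, 8.56% and 8.58% in Prdm16SMKO libraries. On that scale control replicate 2 was the lowest library, Prdm16SMKO replicate 1 remained the highest, and the ratio of the highest to the lowest library was 1.11 in place of 1.20. The part of the 45S share and of these markers in the family's level was not tested.

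**Figure D2:**
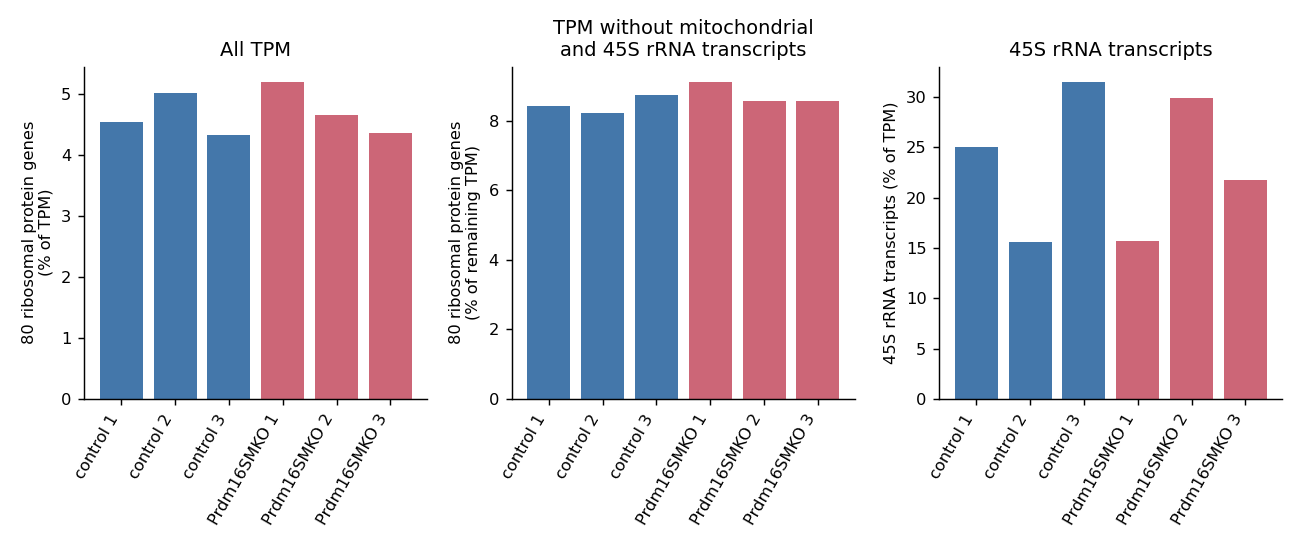
Share of TPM per library (bars, 3 control in blue and 3 Prdm16SMKO in red), in percent, for the 80 ribosomal protein genes in all TPM (left), for the same genes in the TPM without mitochondrial and 45S rRNA transcripts (middle), and for the 45S rRNA transcripts (right). The family's share was highest in control replicate 2 (5.03%) and Prdm16SMKO replicate 1 (5.19%), the libraries with the lowest 45S share.

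Within groups, members varied less between libraries than other genes of 100 to 2000 TPM. The residual SD within groups was 0.13 on the log2 scale as the median of the 78 members of at least 100 TPM, and 0.23 for 678 other genes of 100 to 2000 TPM. Over all 6 libraries the median SD of a member was 0.12 on the log2 scale. It was 0.07 after each library had been scaled to the same family median, a step that lowers the spread of these genes by construction. *Rpl35a* and *Rpl22* followed the rest of the family least, with r of −0.08 and 0.13 to the mean of the other members over the 6 libraries. The median member had 0.88. Among the other genes compared, of at least 5 TPM, the median r was 0.51, and all share the scale of the libraries.

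Among the proteins of the stalk, which recruits the GTPase translation factors to the large subunit, *Rplp0* and *Rplp1* were among the 5 members with the lowest fold change and *Rplp2* was not. *Rplp1* stood at 1565, 1843 and 1569 TPM in control and at 1524, 1530 and 1289 TPM in Prdm16SMKO libraries. All 3 Prdm16SMKO values were below the lowest control value, by a small margin for replicates 1 and 2. Its log2 fold change was −0.20 ± 0.16 (SE; adjusted p = 0.868, limma; exact permutation p = 0.1, the smallest possible with 3 against 3). It was −0.12 without control replicate 2, without Prdm16SMKO replicate 3 or with quantile normalization, and −0.11 with array weights. *Rplp0*, which anchors the stalk, stood at 548, 682 and 518 TPM in control and at 603, 498 and 470 TPM in Prdm16SMKO libraries. Those groups overlapped, at a log2 fold change of −0.15 ± 0.17 (limma, adjusted p = 0.922). It was −0.03 without control replicate 2, −0.08 without Prdm16SMKO replicate 3, −0.08 with array weights, −0.23 without control replicate 3 and −0.26 without Prdm16SMKO replicate 1. *Rplp2* lay at 500 ± 78.8 and 527 ± 24.1 TPM.

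*Rpl22* had the lowest log2 fold change of the family, −0.20 ± 0.14 (SE; adjusted p = 0.819, limma), with a 95% interval from −0.51 to 0.11. Its product is a large-subunit protein that ribosomes can do without and that also binds mRNAs. *Rpl22* stood at 426, 457 and 444 TPM in control and at 407, 372 and 376 TPM in Prdm16SMKO libraries. The groups did not overlap, and each library left out in turn kept the fold change between −0.24 and −0.18. It was −0.12 with quantile normalization. The gene lies at chr4:152325742-152334071 on the plus strand (GRCm38), 1.98 Mb from *Prdm16* (chr4:154316125-154636873, minus strand), and is the nearest member to it. The next nearest member on that chromosome, *Rpl11*, lies 18.3 Mb away.

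*Rpl22l1* encodes the paralog of *Rpl22*, falls outside the name rule, and is known as a transcript that the *Rpl22* protein represses. It was set beside *Rpl22* after the values had been seen. *Rpl22l1* stood at 46.5, 54.8 and 43.1 TPM in control and at 61.0, 58.9 and 54.7 TPM in Prdm16SMKO libraries. Its log2 fold change was 0.28 ± 0.15 (limma, adjusted p = 0.707), and control replicate 2 overlapped with the Prdm16SMKO libraries. The ratio of *Rpl22* to *Rpl22l1* TPM was 9.16, 8.34 and 10.3 in control and 6.68, 6.31 and 6.87 in Prdm16SMKO libraries. All control ratios were above all Prdm16SMKO ratios. The exact two-sided permutation p was 0.1, the smallest this design allows, for a pair picked for its difference.

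At the other end, *Rps4l* had the highest log2 fold change, 0.58 ± 0.21 (SE; adjusted p = 0.444, limma). It is annotated as a transcribed processed pseudogene related to *Rps4x*, at chr6:148354656-148355598 on the plus strand. *Rps4l* stood at 14.4, 16.2 and 11.1 TPM in control and at 25.7, 17.3 and 20.2 TPM in Prdm16SMKO libraries. The groups did not overlap, although Prdm16SMKO replicate 2 was only slightly above control replicate 2. As a share of *Rps4x* it was 2.08%, 2.25% and 1.71% in control and 3.43%, 2.36% and 3.21% in Prdm16SMKO libraries. *Rps4x* itself, a small-subunit protein gene on the X chromosome, lay at 685 ± 35.4 and 704 ± 64.8 TPM. Across all alternatives the adjusted p of *Rps4l* ran from 0.0897 to 0.749.

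The other paralog pairs kept their proportions within the spread. *Rps27l*, known as a target of p53, was at 14.3% to 16.3% of *Rps27* over the 6 libraries, with 15.1% ± 0.398 in control and 15.6% ± 1.13 in Prdm16SMKO mice. *Rpl36al* was at 36.9% ± 2.92 and 34.4% ± 1.96 of *Rpl36a*. *Rpl6l* was at 1.34% ± 0.167 and 1.42% ± 0.428 of *Rpl6*. *Rps27* stood at 642, 637 and 631 TPM in control and 725, 673 and 668 TPM in Prdm16SMKO libraries, without overlap, at a log2 fold change of 0.11 ± 0.14 (limma, adjusted p = 0.922).

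In all, the groups did not overlap for 8 of the 80 members (10%), against 12.8% of all genes tested. Prdm16SMKO libraries were above control for 6 members, against 7.02% of all genes, and below for 2, against 5.76%. Those above were *Rps4l*, *Rpl35a*, *Rpl31*, *Rps7*, *Rps3* and *Rps27*, and those below were *Rplp1* and *Rpl22*. *Rpl31*, a large-subunit protein gene, stood at 336, 342 and 304 TPM in control and at 391, 346 and 354 TPM in Prdm16SMKO libraries, a log2 fold change of 0.15 ± 0.14 (limma, adjusted p = 0.887) that was 0.26 with quantile normalization and 0.10 without control replicate 3 or without Prdm16SMKO replicate 1. *Rps3*, a small-subunit protein that also acts in DNA repair, stood at 322, 356 and 320 TPM in control and at 360, 363 and 360 TPM in Prdm16SMKO libraries. Its log2 fold change was 0.12 ± 0.13 (limma, adjusted p = 0.921), and control replicate 2 lay just under the Prdm16SMKO values. It was 0.22 with quantile normalization. *Rps7*, named after its values were seen, had 468 ± 7.57 and 513 ± 23.1 TPM.

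**Figure D3:**
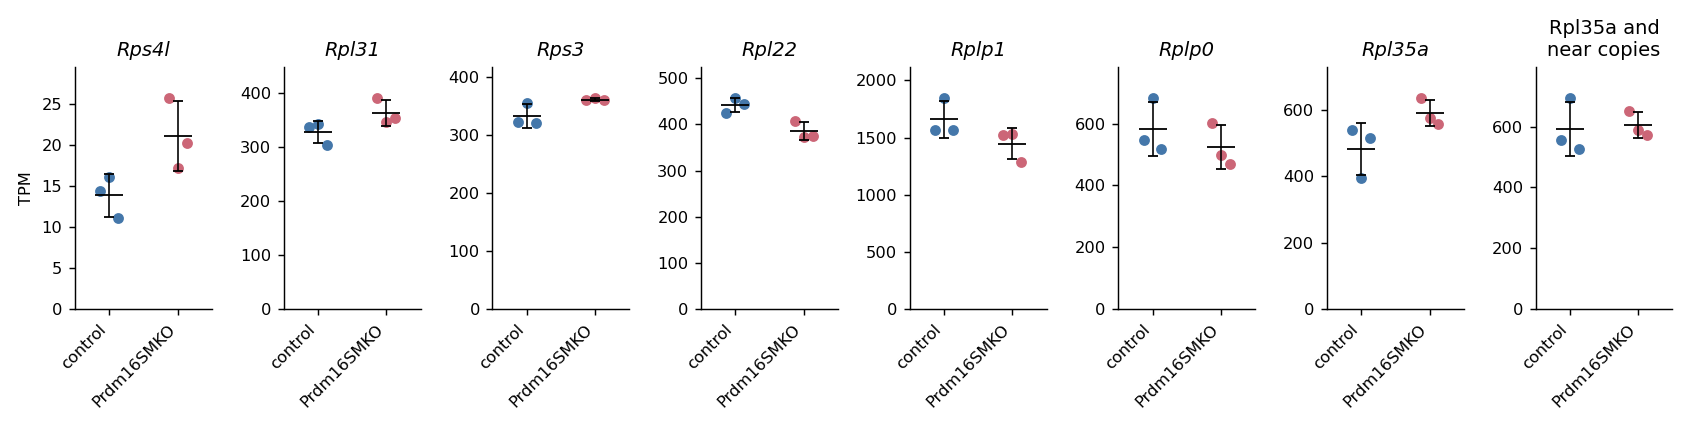
TPM per library (points) on the y axis for 7 ribosomal protein genes and for *Rpl35a* summed with its near copies, in control (blue) and Prdm16SMKO (red) mice, with mean ± SD (n = 3). Axes start at 0 and differ between panels. The groups do not overlap for *Rps4l*, *Rpl31*, *Rps3*, *Rpl22*, *Rplp1* and *Rpl35a*, and overlap for *Rplp0* and for *Rpl35a* with its copies.

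The remaining members named for a known role are given by their group means. *Rpl5* and *Rpl11*, whose proteins bind the 5S rRNA and restrain MDM2 when ribosome assembly fails, lay at 278 ± 16.2 against 282 ± 12.9 TPM and at 696 ± 60.8 against 715 ± 18.6 TPM. *Rps19* and *Rps14*, which are affected in Diamond-Blackfan anemia and in a myelodysplastic syndrome, lay at 291 ± 44.95 against 323 ± 54.2 TPM and at 911 ± 48.3 against 985 ± 50.9 TPM. *Rps6*, the ribosomal protein phosphorylated by S6 kinase, lay at 770 ± 84.3 and 759 ± 83.4 TPM. *Rpl10*, which is placed late in 60S maturation, lay at 894 ± 83.1 and 879 ± 103 TPM.

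*Rpl38*, needed for the translation of Hox mRNAs in the embryo, lay at 455 ± 58.9 in control and 458 ± 41.8 TPM in Prdm16SMKO libraries. *Rps25*, which viral internal ribosome entry sites depend on, lay at 565 ± 37.3 and 580 ± 28.7 TPM. *Rpsa*, the laminin receptor precursor, lay at 551 ± 54.1 and 566 ± 84.4 TPM. *Rps27a*, which is made as a fusion with ubiquitin, lay at 395 ± 23.4 and 410 ± 18.9 TPM. *Rpl41*, the shortest of the proteins, lay at 825 ± 99.5 and 824 ± 133 TPM. Among the genes from *Rpl5* to *Rpl41* in this account, the difference between the group means was smaller than the larger SD, except in *Rps14*. *Rps2* and *Rpl36al* completed the 5 members with the lowest fold change, at −0.09 ± 0.16 and −0.08 ± 0.15 on the log2 scale (SE).

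A second fit looked at each member relative to the rest, after each library had been scaled to the same family median. The median SE was 0.10 on the log2 scale in place of 0.15. The number of members called was again 0, against 95 (0.603%) of all genes. A single member had an unadjusted p under 0.05, against 10.9% of all genes. It was *Rps4l* (log2 fold change 0.56 ± 0.15, adjusted p = 0.227, limma). On this scale 46 of 80 members were higher. Prdm16SMKO libraries lay below control without overlap for 8 members (10%), against 9.28% of all genes, and above for 2 (2.50%), against 6.72%. Those below were *Rpl22*, *Rplp1*, *Rplp0*, *Rps2*, *Rpl36al*, *Rpl4*, *Rpl18* and *Rps26*, and those above were *Rps4l* and *Rps29*. *Rpl22* had a log2 fold change of −0.23 ± 0.10 (unadjusted p = 0.0569, adjusted p = 0.475, limma), *Rplp1* of −0.23 ± 0.10 (adjusted p = 0.501, limma) and *Rplp0* of −0.18 ± 0.10 (adjusted p = 0.575, limma). *Rpl4*, *Rpl18*, *Rps26* and *Rps29* are named after their values were seen.

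The balance of the subunits was close in every library. The summed TPM of the 40S genes divided by that of the 60S genes was 0.702, 0.695 and 0.701 in control and 0.707, 0.723 and 0.716 in Prdm16SMKO libraries. All 3 Prdm16SMKO ratios were above the control ratios, and the highest of the 6 was 1.04 times the lowest. Without the stalk genes *Rplp0*, *Rplp1* and *Rplp2*, left out after the low fold changes of *Rplp0* and *Rplp1* had been seen, the ratios were 0.778, 0.777 and 0.777 in control and 0.774, 0.797 and 0.787 in Prdm16SMKO libraries. The groups then overlapped, and removing genes of low fold change lessens the difference by construction. The median log2 fold change was 0.06 over the 32 genes of the 40S and 0.02 over the 48 genes of the 60S subunit.

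Many ribosomal protein mRNAs have been copied back into the genome as processed pseudogenes, and reads can then fit more than one gene. Of the stretches of 75 bases in the transcripts of a member, a median of 39.7% also occurred in another gene (GENCODE M21), and 28 members shared at least 50%. Near copies, genes outside the family that hold at least 10% of the stretches of a member, numbered 278 for 66 members, and 261 of them are annotated as pseudogenes. *Rpl27*, of the large subunit, has a pair of such copies with high values. *Rpl27-ps3* stood at 275, 303 and 0 TPM in control and at 5.16, 142 and 97.0 TPM in Prdm16SMKO libraries. The copy *Gm11518* stood at 0, 0 and 237 TPM and at 306, 101 and 128 TPM. In the control libraries and in Prdm16SMKO replicate 1 a single copy was high. In Prdm16SMKO replicates 2 and 3 both copies had intermediate values. Their sum stayed between 225 and 312 TPM in all libraries. *Rpl27* itself lay between 227 and 312 TPM. The copy *Rpl38-ps2* of *Rpl38* stood at 199, 183 and 197 TPM in control and at 372, 228 and 35.6 TPM in Prdm16SMKO libraries. Summed with its near copies, *Rpl38* had 452 to 872 TPM over the 6 libraries. Differences between the copies are uncertain, and how reads were divided between members and copies was not tested.

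*Rpl35a*, the member with the second highest fold change, stood at 538, 394 and 517 TPM in control and at 635, 577 and 559 TPM in Prdm16SMKO libraries, a log2 fold change of 0.30 ± 0.17 (limma, adjusted p = 0.722). Control replicate 2 was low, and in that library the copy *Gm10243* stood at 198 TPM, where the other libraries had 0 to 16.1 TPM. The copies *Rpl35a-ps2*, *Rpl35a-ps3*, *Rpl35a-ps4* and *Rpl35a-ps6* each stood at 24.8 TPM there and at 0 to 3.96 TPM in the others. The log2 fold change of *Rpl35a* was 0.16 without control replicate 2 and 0.16 with array weights. Whether reads of *Rpl35a* were assigned to these copies was not tested. Summed with its near copies, *Rpl35a* had 554, 693 and 527 TPM in control and 652, 590 and 572 TPM in Prdm16SMKO libraries. The groups then overlapped, control replicate 2 was the highest library, and the log2 fold change was 0.04 (limma, adjusted p = 0.99). The sum also ended the separation of *Rpl31*, whereas *Rps7*, *Rps27* and *Rplp1* were apart with their copies added. For *Rps4l*, *Rps3* and *Rpl22* nothing was added, since they have no near copy, with 6.67%, 0% and 1.42% of their stretches in another gene.

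**Figure D4:**
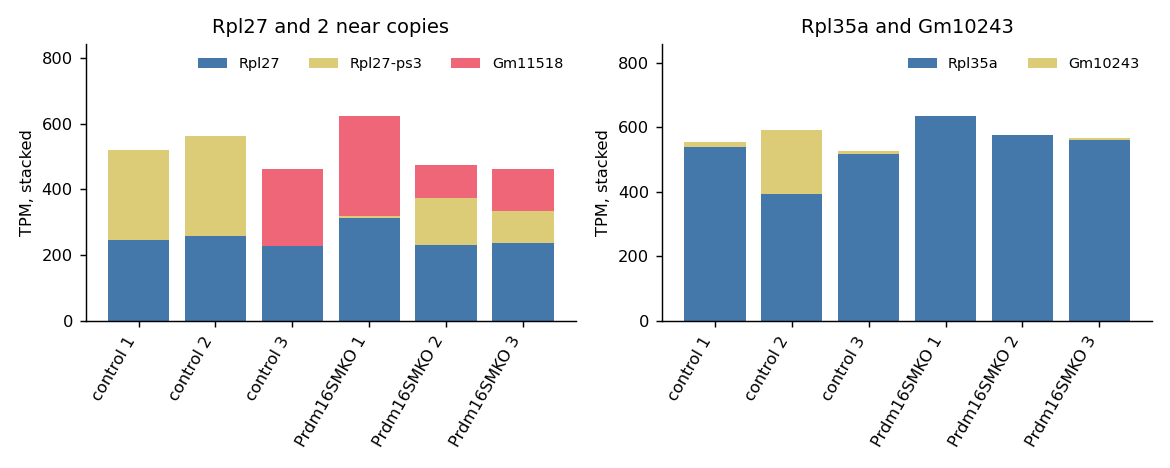
Stacked TPM per library of *Rpl27* with its near copies *Rpl27-ps3* and *Gm11518* (left) and of *Rpl35a* with *Gm10243* (right), in 3 control and 3 Prdm16SMKO libraries. Both copies of *Rpl27* are intermediate in Prdm16SMKO replicates 2 and 3, and in the other libraries a single copy is high. The low *Rpl35a* value of control replicate 2 (394 TPM) stands beside 198 TPM of *Gm10243*.

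Other genes of translation were read from lists, and none of their genes was called by limma. At an unadjusted p under 0.05 there were 2 elongation genes, 1 ribosome biogenesis gene, 1 mitochondrial ribosome gene and 6 pseudogenes, and 0 in the other lists, against 8.74% of all genes. The list of ribosomal proteins and related genes outside the name rule had 7 of 8 genes higher, against 54.2% of all genes. Its median log2 fold change was 0.17. In it, *Fau* (made as a fusion with a ubiquitin-like protein) was at 0.07 and *Rps3a1* at 0.03. The list also holds paralogs and copies of lower level. Among these *Rps27rt* was at 0.35, *Rpl9-ps6* at 0.32, *Rpl22l1* at 0.28 and *Rpl7l1* at 0.26. Only *Rpl10-ps3* was lower, at −0.05. *Fau* lay at 417 ± 68.3 and 438 ± 88.3 TPM. Of the 10 genes tested in the elongation list, 4 were higher, with a median of −0.03 on the log2 scale. The 2 with an unadjusted p under 0.05 were of low level. *Eef1e1* had a log2 fold change of 0.51 ± 0.19 (limma, adjusted p = 0.470) and *Eef1a2* of 2.13 ± 0.86 (limma, adjusted p = 0.522). *Eef1a2* stood at 33.1 TPM in Prdm16SMKO replicate 1 and at 0.45 to 5.14 TPM in the other libraries. *Eef1a1*, which brings tRNAs to the ribosome and carries a TOP tract, lay at 2687 ± 402 and 2655 ± 216 TPM. *Eef2*, which moves the ribosome along the mRNA, lay at 596 ± 111 and 618 ± 47.7 TPM. Of 41 initiation factor genes, 14 were higher, with a median of −0.04. The lists of other TOP mRNAs (8 of 14 higher, median 0.00330), ribosome biogenesis (21 of 40, median 0.01) and ribosome quality control and signalling (13 of 18, median 0.05) stood near the median of all genes.

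Of the 78 genes of the mitochondrial ribosome, which translates the mitochondrial genome, 47 were higher, at a median log2 fold change of 0.08. Nuclear genes of oxidative phosphorylation had 70 of 78 higher and a median of 0.18, the highest of these lists. Their sum was 15382 TPM in Prdm16SMKO replicate 3 and 8870 to 12043 TPM in the other libraries. That library also had the highest sums of adipocyte (482 TPM) and brown adipocyte markers (478 TPM), whose part in this was not tested. Of the 75 ribosomal protein pseudogenes above the minimum, 47 were higher, with a median of 0.09.

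**Figure D5:**
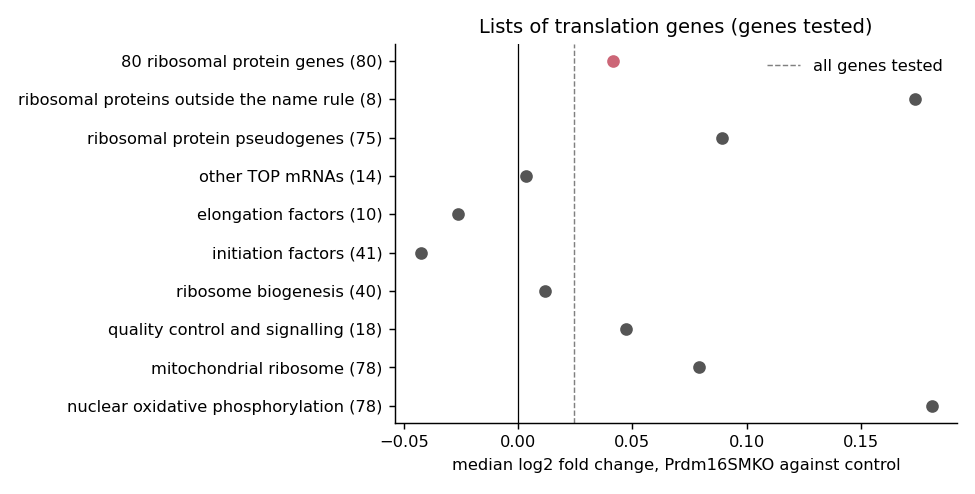
Median log2 fold change, Prdm16SMKO against control (x axis), of the 80 ribosomal protein genes (red) and of 9 further lists (grey), with the number of genes tested in brackets; the dashed line is the median of all 15775 genes. The family's median (0.04) lies near that of all genes (0.02).

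Markers of the cell types of the vessel are given beside these levels, since in whole tissue fewer cells of a type and less RNA per cell cannot be told apart. All 5 VSMC markers had negative log2 fold changes (median −0.47), and their summed level was 14505 to 24674 TPM in control and 11119 to 17094 TPM in Prdm16SMKO libraries. *Acta2* lay at 9269 ± 3275 and 6546 ± 1440 TPM, and the tissue's defining markers were present in every library. All 5 erythroid markers were higher, at a sum of 1143 to 3167 TPM in control and 2191 to 19568 TPM in Prdm16SMKO libraries, the highest in replicate 2. Sums for endothelial cells were 141 to 196 and 182 to 370 TPM, for fibroblasts 292 to 349 and 324 to 551 TPM, and for macrophages 13.9 to 18.2 and 16.5 to 33.3 TPM. Adipocyte markers summed to 59.2 to 166 and 103 to 482 TPM, brown adipocyte markers to 48.0 to 159 and 5.09 to 478 TPM, and neuron and Schwann cell markers to 5.32 to 79.95 and 4.94 to 343 TPM. B cell and T cell markers summed to at most 3.31 and 2.37 TPM in any library. Skeletal muscle markers reached 44.3 TPM and cardiomyocyte markers 12.9 TPM, each in a Prdm16SMKO library. None of these markers was called by limma. An unadjusted p under 0.05 was reached by all 5 erythroid markers, by 2 each of the VSMC, macrophage and cardiomyocyte markers, and by 1 each of the endothelial, fibroblast and adipocyte markers, against 8.74% of all genes. The part of other cells in the levels of the family was not tested.

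Genes outside the family and the lists were ranked by how closely they followed the family's mean log2 level over the 6 libraries, among 9247 genes of at least 5 TPM. The closest were *Ssx2ip* (r = 0.998), *Herc4* (r = 0.997), *Cops9* (r = 0.996), *Ppp1r12c* (r = 0.995) and *Gatc* (r = 0.994). All share the libraries and their TPM scale with the family, and 6.00% of the genes had an r of at least 0.9.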

How the data were processed

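The authors made TPM values from polyadenylated RNA, read as 151 bp pairs (40 M pairs per sample on average, per the labels), and deposited 1 table of TPM for 55426 genes. The submitters' processing notes name bcl2fastq, cutadapt 2.3, FastQC 0.11.8, STAR 2.7.8a, RSEM 1.3.3, MultiQC 1.7 and GRCm38, with no settings. TPM has a fixed total per library and keeps no read counts. Estimation by RSEM can divide reads between near-identical genes.

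The 15775 genes whose mean reached 0.5 TPM were compared on log2(TPM + 0.5) with limma 3.58.1 (R 4.3.3, variance trend, two-sided, Benjamini-Hochberg over all genes), and called at an adjusted p under 0.05. The fit was also run on simulated data, and the counts of calls given here do not rest on that run. Exact permutation tests cannot go below 0.1. Fold changes are on the log2(TPM + 0.5) scale. Intervals are limma's 95% intervals. Shared stretches and positions came from GENCODE M21 and starts from RefSeq. Tables were made with pandas 2.3.3, numpy 2.4.6 and scipy 1.17.1, and figures with matplotlib 3.10.9, in Python 3.11.15.

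The members, lists and tests were chosen with earlier results of these data known. Named members were the 5 with the highest and the 5 with the lowest fold change, the 5 most and 5 least abundant, paralog pairs, any called, and 17 of known role. Some members and related genes are not reported here by name. Other genes were named after their values were seen. Summing members with near copies was added after seeing the data. Proteins were not analysed here.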

Additional observations from a re-analysis of the deposited data

How the results depend on the processing

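No ribosomal protein gene was called under any of the 19 alternatives, by limma in each. The adjusted p nearest to the threshold was 0.0897, for *Rps4l* with length and GC trends removed. The number of ribosomal protein genes higher ranged from 46 to 67 of 80 over the alternatives that kept every library, and from 32 to 75 when 1 library was left out, with the median log2 fold change from −0.02 to 0.10. Their summed TPM had a log2 ratio of 0.03, and from −0.04 to 0.10 with 1 library left out. The number of all genes called, 56, was 10 with no expression minimum, 153 with median-of-ratios scaling, 129 with quantile normalization, 123 without mitochondrial and 45S rRNA transcripts, 95 with scaling to the family median, 149 with length and GC trends removed, 494 with array weights, 33 with no variance trend, and 5 to 61 with 1 library left out, and the cause was not tested. The share of calls that were higher, 51.8%, was 39.9% with median-of-ratios scaling, 35.7% with quantile normalization, 37.9% with family scaling and 56.1% with array weights.

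The labels do not say whether equal replicate numbers pair the mice. Correlations of deviations were −0.13, −0.11 and 0.02 between same-numbered libraries and −0.17 to 0.24 between the others. With so few libraries per group they cannot decide this. A replicate block gave 4 calls, 0 of them in the family.

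The sign was other than in the main fit for 44 of 608 values of named genes, in 16 of the 32 named genes. The largest of these values was 0.19 in size, and no named gene was called under any alternative. *Rpl36a* was at −0.0097 with quantile normalization, −0.012 with family scaling, −0.017 with length and GC trends removed and −0.021 with array weights. With family scaling *Rpl38* was at −0.017, *Rpl5* at −0.0087, *Rpl6* at −0.013 and *Rps15* at −0.00069. *Rpl41* was at 0.0090 without mitochondrial and 45S rRNA transcripts. With array weights *Rpl10* was at 0.025, *Rpl41* at 0.039, *Rpl6l* at −0.0053 and *Rps6* at 0.013. *Rpl5* was at −0.021 when summed with near copies. With 1 library left out, the ranges were −0.11 to 0.062 for *Rpl10*, −0.026 to 0.10 for *Rpl11*, −0.047 to 0.16 for *Rpl13a*, −0.024 to 0.039 for *Rpl36a*, −0.058 to 0.12 for *Rpl38*, −0.14 to 0.088 for *Rpl41*, −0.019 to 0.064 for *Rpl5*, −0.051 to 0.093 for *Rpl6*, −0.19 to 0.27 for *Rpl6l*, −0.025 to 0.20 for *Rplp2*, −0.11 to 0.11 for *Rps15*, −0.18 to 0.0032 for *Rps2*, −0.011 to 0.084 for *Rps25*, −0.011 to 0.11 for *Rps4x*, −0.11 to 0.065 for *Rps6* and −0.088 to 0.11 for *Rpsa*. With 3 mice per group and no read counts, changes smaller than the intervals given could not be resolved.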
